A study of Mus musculus with 112 samples.

Results

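EpiSC9 is a mouse epiblast stem cell (EpiSC) line of the 129SvJ strain that was imported from another laboratory, and it was set against the 18 EpiSC lines that the study derived itself from R1-129 embryos. The compared arrays were 3 EpiSC9 cultures, labelled passage 24, and 65 arrays of the R1-129 lines, labelled passages 10 to 19; the series holds 43 further arrays, of other cells or of amplified RNA, which did not enter the comparison. The R1-129 lines came from embryos at the cavity (4 lines), prestreak (3), late midstreak (6), early bud (2) and late bud (3) stages, and starred sublines, thawed separately from the same embryo, were averaged with their line. The 3 cultures of EpiSC9 were averaged to 1 line. One further array, EpiSC9_T, measured EpiSC9 RNA that came from the source of the line, with no passage given, and was kept out of the fit as a check. The cultures had no labelled treatment; they grew on fibroblasts and collagenase was used to detach them. The labels give the imported line and the home-made lines different strains, passages and laboratories of origin, so these cannot be told apart here, and EpiSC9 is a single line.

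EpiSCs are pluripotent cells taken from the epiblast after implantation. They depend on Activin/Nodal and FGF signals, hold Pou5f1, Nanog and Sox2, and differ from naive embryonic stem cells in holding early lineage genes and little of the naive factors such as Zfp42, Klf4 and Esrrb. Lines from different embryos and laboratories are known to differ in how much of each early lineage programme they express.

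Values are log2 levels of 1 probe per gene after background correction and quantile normalization. A probe was called detected when the deposited detection p-value was below 0.01. Detection reached 35.9 to 38.2% of probes in the EpiSC9 cultures, 33.2% in EpiSC9_T and 33.7 to 41.1% on the R1-129 arrays. Across genes, the EpiSC9 cultures correlated with each other at r = 0.977 to 0.988, while cultures of 1 R1-129 line or subline correlated at 0.983 to 0.997. EpiSC9 culture 1 correlated at 0.977 and 0.983 with the other cultures, at 0.974 with LMS3, the line most like it, and at 0.929 with LMS4, the line least like it. Signals of probes at background placed the EpiSC9 arrays and EpiSC9_T in 1 array set of 18 arrays that also held 12 R1-129 arrays of 5 lines. Comparisons limited to that set are given below as within the shared array set.

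EpiSC9 expressed the genes that define EpiSCs at levels inside the range of the R1-129 lines. Pou5f1, the central pluripotency factor, stood at 11.80, 11.96 and 11.97 in the EpiSC9 cultures, and its lowest, median and highest R1-129 line means were 10.15, 12.17 and 13.18. Nanog, another core factor, averaged 11.10 in EpiSC9 and 10.89 over the R1-129 lines (log2 difference 0.21 ± 0.44, SE; adjusted p = 0.886, limma). Fgf5, a growth factor of the post-implantation epiblast, averaged 8.72 in EpiSC9 and 9.06 in the R1-129 lines (adjusted p = 0.918). None of the 11 tested genes of the core pluripotency list and none of the 12 of the post-implantation epiblast list passed the test. Zfp42, a marker of the naive state, was at 5.20, 4.99 and 5.44 in EpiSC9 and between 4.56 and 5.03 in the R1-129 lines, close to background in both.

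A total of 288 of 14460 genes tested (1.99%) differed between EpiSC9 and the R1-129 lines at an adjusted p below 0.05, and 230 of them (1.59%) were higher and 58 (0.401%) lower in EpiSC9. A gene was tested when at least 3 compared arrays detected it, EpiSC9 cultures included. Of the 14339 genes that reached this minimum on R1-129 arrays alone, 182 were higher and 58 lower. The other higher genes reached it only through the EpiSC9 cultures, a route that favours higher genes. The median log2 fold change over all genes was -0.02. Every one of the 230 higher genes lay above all 18 line means, and every one of the 58 lower genes lay below them. The test takes its spread from these lines, so this follows largely from the calls and adds no support to them. For 131 of the higher and 22 of the lower genes the 3 cultures also lay beyond all 65 single R1-129 arrays. Most of the higher genes were faint in the R1-129 lines: 132 of 230 were detected on fewer than 33 of the 65 R1-129 arrays, and 13 on none. The lower genes were mostly well expressed there, with 53 of 58 detected on all 65 arrays. An unadjusted p below 0.05 was reached by 1902 genes. Within the shared array set, 89 of 12598 genes passed, and 66 of these were among the 288. With passage as a covariate 116 passed, 93 of them among the 288, and the passages of EpiSC9 and the R1-129 lines do not overlap.

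**Figure D1:**
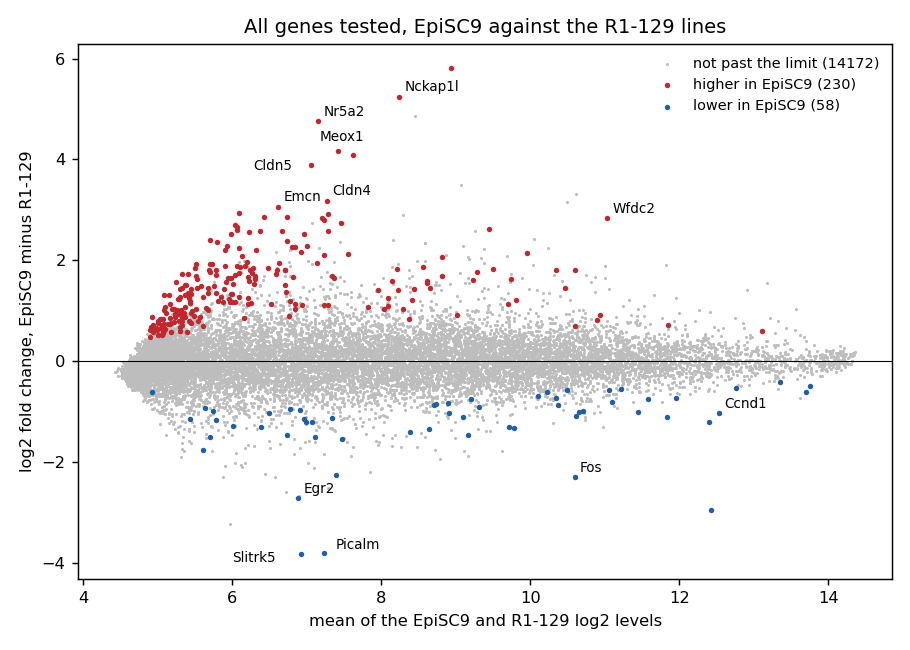
Log2 fold change (EpiSC9 minus the R1-129 lines, y axis) against the mean log2 level of both groups (x axis) for the 14460 genes tested, with each point 1 gene. The 230 genes higher in EpiSC9 (red) crowd at low levels and reach past 5, while the 58 lower genes (blue) are spread over all levels.

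The highest log2 fold change of a gene with a current symbol belonged to Nckap1l, which encodes a WAVE complex subunit known from blood cells. It stood at 11.22, 10.70 and 10.67 in the EpiSC9 cultures and 11.12 in EpiSC9_T, while the lowest, median and highest R1-129 line means were 4.92, 5.61 and 6.44. All EpiSC9 arrays were thus far above every line (log2 fold change 5.25 ± 0.42, adjusted p = 3.33e-08), and 48 of 65 R1-129 arrays detected the probe. The other 13 tested genes of the blood and macrophage list did not pass, and their list had a median log2 fold change of 0.05. The list's mean level was 6.08 to 6.14 in EpiSC9, inside the R1-129 range of 5.32 to 6.56.

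Nr5a2, a nuclear receptor that binds the Pou5f1 promoter in the epiblast and can stand in for Pou5f1 in reprogramming, was at 9.58, 9.64 and 9.36 in the EpiSC9 cultures and at 9.86 in EpiSC9_T. Its R1-129 line means ran from 4.47 through a median of 4.71 to 5.16, and only 9 of 65 R1-129 arrays detected it. The groups were widely separated (27.1-fold, log2 fold change 4.76 ± 0.25, adjusted p = 2.38e-11). Another Nr5a2 probe, which no R1-129 array detected, read 6.91, 7.22 and 6.86 in EpiSC9 against a mean of 4.53 in the R1-129 lines, and passed when each probe was tested on its own. A further Nr5a2 probe stayed near background in both groups.

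Among the naive pluripotency genes, Dppa5a, an RNA-binding protein abundant in embryonic stem cells, was also higher in EpiSC9. It read 6.43, 7.60 and 7.07 in the cultures and 9.26 in EpiSC9_T, with R1-129 lines between 4.83 and 7.02 and a median of 5.05 (log2 fold change 1.86 ± 0.47, adjusted p = 0.0382), so culture 1 overlapped the highest R1-129 line, LMS2. Its call was lost in 12 of 40 alternatives, within the shared array set among them. Nr5a2 and Dppa5a were the 2 members past the test among 13 tested (15.4%, against 1.59% of all genes), whose median log2 fold change was 0.09. The list's mean level was 6.91 to 7.18 in the EpiSC9 cultures and 7.44 in EpiSC9_T, above the R1-129 lines at 6.17 to 6.87. Nr5a2 and Dppa5a enter this mean, which was not computed without them. The 11 other tested members did not pass: Klf4, for example, averaged 6.03 in EpiSC9 and 7.27 in the R1-129 lines (adjusted p = 0.549), and Esrrb averaged 5.17 and 5.08 (adjusted p = 0.935).

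**Figure D2:**
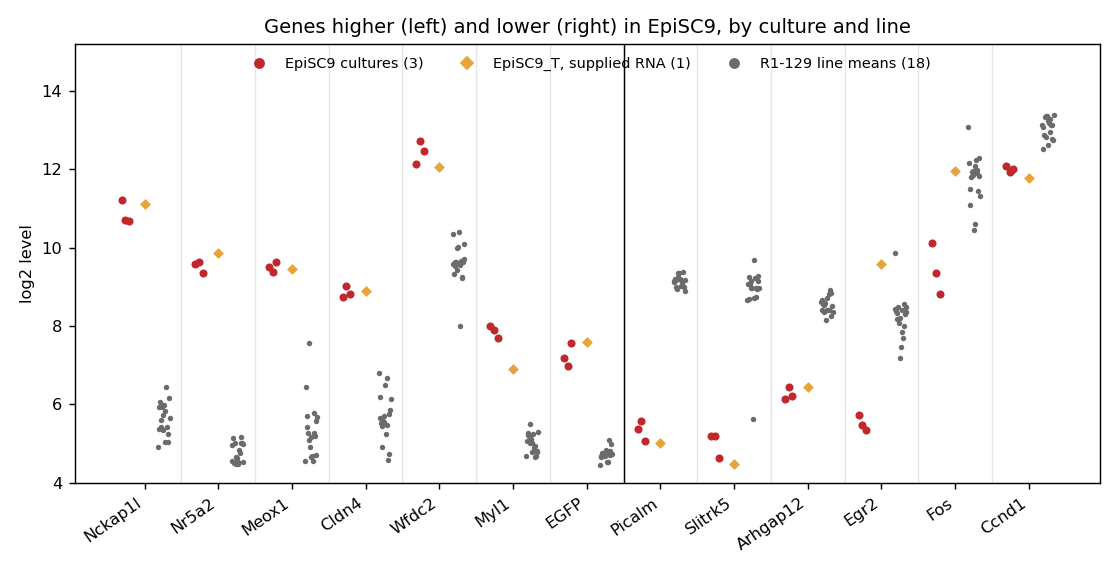
Log2 level (y axis) of 7 genes higher and 6 genes lower in EpiSC9, with the 3 EpiSC9 cultures (red), EpiSC9_T (orange) and the 18 R1-129 line means (grey) for each gene. Nckap1l, Nr5a2 and Picalm separate all EpiSC9 arrays from all lines, whereas EpiSC9_T lies among the R1-129 lines for Fos and Egr2.

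The endothelial list gave the largest share of members past the test. Of its 17 tested members, 9 were higher in EpiSC9 and none lower (52.9%, against 1.59% of all genes tested), all 17 had a positive log2 fold change, and their median was 1.47 against -0.02 over all genes. The list has 23 members in all, and Icam2, Pecam1 and Cdh5 reached the detection minimum of 3 arrays only through the EpiSC9 cultures. Of the 14 members that reached it on R1-129 arrays alone 6 were higher (42.9%, against 1.27% of the 14339 genes that did so), and with a stricter filter on dim probes 4 passed. The genes that rose were Cldn5, a tight junction claudin of vessels, Emcn, an endothelial sialomucin, Esam and Icam2, adhesion molecules of endothelial cells, the transcription factors Sox18 and Sox7, Robo4, a guidance receptor of vessels, Cdh5, the endothelial cadherin, and Pecam1, an endothelial surface protein. For 11 of the 17 members, the 3 cultures lay beyond all 65 R1-129 arrays, where 1.94% of all genes did. The 17 include Icam2, Pecam1 and Cdh5, and this count was not made without them.

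Cldn5 stood at 8.90, 9.15 and 8.96 in the EpiSC9 cultures, against R1-129 line means of 4.53 at the lowest, 4.94 at the median and 6.84 in the highest line, CAV4. No line came within the cultures' range (log2 fold change 3.90 ± 0.56, adjusted p = 0.000194), and 22 of 65 R1-129 arrays detected the gene. Emcn read 8.32, 8.25 and 7.87 in EpiSC9 and 4.47 to 6.14 in the R1-129 lines (log2 fold change 3.06 ± 0.49, adjusted p = 0.000617). Esam read 8.71, 8.76 and 8.74 in EpiSC9 and 5.05 to 7.26 in the R1-129 lines (log2 fold change 2.91 ± 0.53, adjusted p = 0.00247). These 3 genes were clearly expressed in EpiSC9 and low to moderate in the R1-129 lines.

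Other endothelial genes were higher at low levels. Icam2, which no R1-129 array detected, averaged 6.26 in EpiSC9 and 4.54 in the R1-129 lines, at least 2.03-fold higher (adjusted p = 3.33e-08). Pecam1, also detected on no R1-129 array, read 5.54, 5.96 and 5.69 in EpiSC9 and was at least 1.41-fold higher (adjusted p = 1.36e-06). Cdh5, detected on 2 of 65 R1-129 arrays, read 6.31, 6.09 and 6.36 in EpiSC9 and 4.58 to 5.17 in the R1-129 lines (adjusted p = 5.53e-06). Sox18 was the weakest call of the list (log2 fold change 2.27 ± 0.59, adjusted p = 0.0488) and was lost in 23 of 40 alternatives.

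The members that did not pass included Ets1 and Tek, just past the limit. Ets1, a transcription factor of endothelial and other cells, averaged 9.57 in EpiSC9 and 7.59 in the R1-129 lines (adjusted p = 0.0523), and Tek, the angiopoietin receptor, averaged 6.09 and 5.12 (adjusted p = 0.0508). Flt1, a receptor for vascular endothelial growth factor, averaged 8.38 in EpiSC9 and 7.47 in the R1-129 lines (adjusted p = 0.647). Within the shared array set, 4 of 17 members passed (Cldn5, Emcn, Esam and Icam2), all 17 were again higher, and the median was 1.64. With passage as a covariate 5 passed (Cldn5, Sox18, Icam2, Pecam1 and Cdh5). Of these, Icam2, Pecam1 and Cdh5 reached the detection minimum only through the EpiSC9 cultures. The calls of Emcn, Esam, Robo4 and Sox7 were lost with passage (log2 fold change 2, 1.93, 0.9 and 0.83).

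Genes outside the list that are known from vessels also passed. They were picked after their values were seen, so they support nothing beyond their own tests. Plxnd1, a semaphorin receptor of the vasculature, read 8.55, 8.40 and 8.76 in EpiSC9 and 5.21 to 6.53 in the R1-129 lines (log2 fold change 2.58 ± 0.37, adjusted p = 0.000204), and another of its probes passed too. Mmrn2, an extracellular matrix protein of endothelium, read 7.26, 6.95 and 6.73 in EpiSC9 and was detected on 1 of 65 R1-129 arrays (log2 fold change 2.37 ± 0.17). Mmrn2 thus reached the detection minimum only through the EpiSC9 cultures. Cd93, an endothelial surface receptor, read 6.68, 7.01 and 6.86 in EpiSC9, with R1-129 lines at 4.77 to 5.29 (log2 fold change 1.89 ± 0.15, adjusted p = 3.36e-08).

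The mean level of the 17 endothelial genes was not computed without the members that passed, Icam2, Pecam1 and Cdh5 among them. It was 7.68, 7.83 and 7.85 in the EpiSC9 cultures, against R1-129 lines from 5.78 in LB2 to 6.53 in CAV4. EpiSC9_T lay between, at 6.73. The endothelial genes thus differed between the cultures and the supplied RNA: Cdh5 read 4.78, Robo4 4.93, Sox7 4.86 and Pecam1 4.76 in EpiSC9_T, none of them detected there, while Cldn5 (7.42), Emcn (6.35) and Esam (7.45) were above all 18 lines in EpiSC9_T but below all EpiSC9 cultures. In bulk RNA, more cells of a type and more RNA per cell cannot be told apart.

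**Figure D3:**
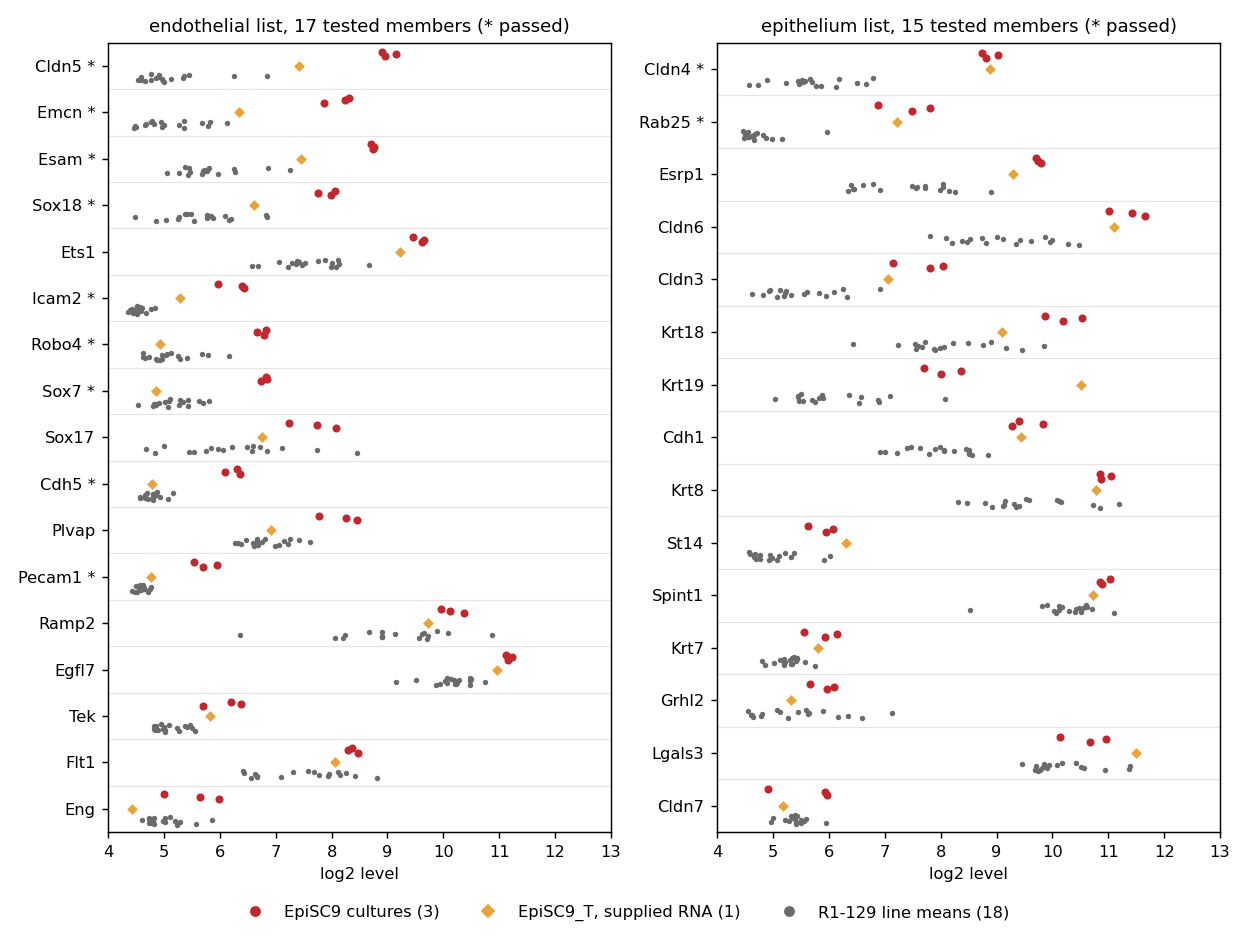
Log2 level (x axis) of the 17 tested members of the endothelial list (left) and 15 of the 16 of the epithelium list (right), with the 3 EpiSC9 cultures (red), EpiSC9_T (orange) and the 18 R1-129 line means (grey) in each row and a star at members that passed. EpiSC9 cultures lie right of most lines in both panels, and EpiSC9_T lies near the cultures in the epithelium panel and nearer the lines in the endothelial one.

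Promoters are shown for the called endothelial genes with an entry in RefSeq's table of the GRCm38.p6 build, 3 of 9, because these genes rose together. Each sequence holds the 250 bases before the annotated start on its own strand, and capitals mark the letters AGGAAG or its reverse complement CTTCCT, a core that ETS factors, a family named after Ets1, are known to bind.
Cldn5 (chr16:18776597-18776846, + strand): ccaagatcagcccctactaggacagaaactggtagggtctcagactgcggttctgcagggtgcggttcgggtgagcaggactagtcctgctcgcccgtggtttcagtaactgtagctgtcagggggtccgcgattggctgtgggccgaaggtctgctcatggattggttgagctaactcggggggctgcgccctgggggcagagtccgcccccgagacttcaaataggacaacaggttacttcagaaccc
Emcn (chr3:137340828-137341077, + strand): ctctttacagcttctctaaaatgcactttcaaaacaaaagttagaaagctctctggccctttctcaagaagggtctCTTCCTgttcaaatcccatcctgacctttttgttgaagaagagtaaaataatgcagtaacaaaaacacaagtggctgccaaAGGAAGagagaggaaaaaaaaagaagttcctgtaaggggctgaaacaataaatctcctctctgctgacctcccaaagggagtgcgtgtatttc
Robo4 (chr9:37401722-37401971, + strand): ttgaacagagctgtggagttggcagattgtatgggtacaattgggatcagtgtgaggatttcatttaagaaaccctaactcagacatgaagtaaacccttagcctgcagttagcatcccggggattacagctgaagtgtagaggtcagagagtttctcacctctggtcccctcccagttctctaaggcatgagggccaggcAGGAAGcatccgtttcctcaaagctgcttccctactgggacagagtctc
The Emcn window held 2 matches, Robo4 held 1 and Cldn5 held none. Of 32851 promoter windows of the same length in the table, 29.5% held at least 1 match on either strand, so a match is a description and no sign of binding.

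The epithelium list was the other list with a high median. All 16 tested members had a positive log2 fold change, with a median of 1.69, and 3 passed (18.8%, against 1.59% of all genes). Cldn4, a claudin of tight epithelia, read 8.75, 9.03 and 8.81 in the EpiSC9 cultures and 8.88 in EpiSC9_T, against R1-129 lines of 4.57 at the lowest, 5.62 at the median and 6.79 at the highest (log2 fold change 3.18 ± 0.59, adjusted p = 0.00308). Rab25, a GTPase of epithelial vesicle traffic, read 6.88, 7.82 and 7.49 in EpiSC9 and 4.46 to 5.97 in the R1-129 lines (log2 fold change 2.65 ± 0.34, adjusted p = 4.47e-05), and both of its tested probes passed.

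Of the members that did not pass, Cdh1, Cldn6 and Esrp1 lay above all line means, and the R1-129 lines differed widely among themselves for them. Some others lay inside the R1-129 range. Krt8 read 10.8 to 11.0 in the cultures and 11.2 in LMS3, and Lgals3 read 10.1 to 11.0 in the cultures and 11.4 in LMS1. Cdh1, the epithelial cadherin, averaged 9.51 in EpiSC9, above the R1-129 line range of 6.91 to 8.85 (log2 difference 1.56 ± 0.55, adjusted p = 0.194). Cldn6, a claudin of pluripotent and embryonic epithelial cells, averaged 11.36 in EpiSC9 and 7.81 to 10.48 in the R1-129 lines (adjusted p = 0.161). Esrp1, a splicing regulator of epithelia, averaged 9.75 in EpiSC9 and 6.34 to 8.89 in the R1-129 lines (adjusted p = 0.127). For 6 of 16 members all cultures exceeded all 65 R1-129 arrays.

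The mean level of the 16 epithelial genes was 8.18 to 8.65 in the EpiSC9 cultures and 8.44 in EpiSC9_T, against 6.36 to 7.46 in the R1-129 lines, without overlap. The members that passed enter this mean, which was not computed without them. In EpiSC9_T 11 of these 16 genes were above all 18 lines, and 7 of the 17 endothelial genes were; the difference between the lists was not tested. With cultures as the unit and the line as a random block, 8 of 16 passed. That fit counts the cultures of EpiSC9 separately and uses the same within-line correlation, 0.47, for every gene. It understates the spread for genes whose lines differ more than this, so the 8 add no support beyond the line-level test. Within the shared array set 3 passed and the median was 1.98, but these did not include Rab25 (log2 fold change 2.27, adjusted p = 0.139). With passage as a covariate the call of Cldn4 was lost (log2 fold change 2.34) and that of Rab25 was kept (1.92).

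Several epithelial and secreted products outside the list were among the 20 highest genes. The genes of this paragraph were grouped after their values were seen, so they support nothing beyond their own tests. Wfdc2, a secreted whey acidic protein of epithelia, was strong in both groups, at 12.13, 12.72 and 12.48 in EpiSC9 and 8.01 to 10.40 in the R1-129 lines (log2 fold change 2.83 ± 0.50, adjusted p = 0.00214). Tmprss2, an epithelial serine protease, read 8.57, 8.58 and 8.71 in EpiSC9 and 4.60 to 6.99 in the R1-129 lines (adjusted p = 0.0198). Ush1c, a scaffold protein of microvilli and hair bundles, read 7.42, 7.37 and 7.29 in EpiSC9, and 10 of 65 R1-129 arrays detected it (log2 fold change 2.60 ± 0.46, adjusted p = 0.00203). Outside those 20, Cdh3, placental cadherin, passed with both tested probes (log2 fold change 1.80 ± 0.37). The calls of Tmprss2 and Cdh3 were lost within the shared array set (adjusted p = 0.084 and 0.104). With passage as a covariate the calls of Wfdc2, Tmprss2, Ush1c and Cdh3 were all lost (log2 fold change 1.77, 3.23, 2.44 and 1.83).

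Of 11 tested somite and paraxial mesoderm genes 2 rose (18.2%, against 1.59% of all genes), Meox1 and Foxc2. The list's mean level was 6.22 to 6.54 in the EpiSC9 cultures and 6.42 in EpiSC9_T, against 5.11 to 6.20 in the R1-129 lines. Meox1 and Foxc2 enter this mean, which was not computed without them. Meox1, a homeobox factor of the somites, read 9.49, 9.38 and 9.63 in the EpiSC9 cultures and 9.46 in EpiSC9_T, against R1-129 lines from 4.54 through a median of 5.23 to 7.55 in PS4 (log2 fold change 4.16 ± 0.70, adjusted p = 0.00133), and 32 of 65 R1-129 arrays detected it. Its value was 2.75 with passage as a covariate (adjusted p = 0.172). Foxc2, a forkhead factor of paraxial mesoderm and vessels, averaged 6.58 in EpiSC9 and 4.81 in the R1-129 lines (adjusted p = 0.00127). The other 9 did not pass, and the list's median log2 fold change was 0.57. None of the 7 tested lateral and cardiac mesoderm genes passed, all 7 were above the R1-129 mean, and their mean level was 7.41 to 7.56 in the EpiSC9 cultures and 6.86 in EpiSC9_T, against 5.68 to 7.34 in the R1-129 lines. Of 17 tested primitive streak genes 1 passed, Mesp1, a factor of the earliest cardiac mesoderm. It read 5.06, 5.98 and 6.36 in EpiSC9 and 8.70 in EpiSC9_T, with R1-129 lines at 4.36 to 4.92 (log2 fold change 1.32 ± 0.14, adjusted p = 4.17e-06). Mesp1 was detected on 2 EpiSC9 cultures and 1 of 65 R1-129 arrays, so it reached the detection minimum only through EpiSC9. Of the 16 streak genes that reached it on R1-129 arrays alone, 0 passed. The Mesp1 call was lost within the shared array set (adjusted p = 0.178). The streak genes T, the brachyury factor, and Mixl1 did not pass (adjusted p = 0.749 and 0.86), nor did any of the 13 tested anterior streak, node and definitive endoderm genes.

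Genes of contractile muscle, again picked after their values were seen, were higher at low to moderate levels. Myl1, a light chain of fast skeletal myosin, read 7.99, 7.90 and 7.69 in EpiSC9 and 6.90 in EpiSC9_T, with R1-129 lines at 4.65 to 5.50 (log2 fold change 2.85 ± 0.25, adjusted p = 1.39e-07). Myl4, an embryonic and atrial myosin light chain, read 7.80, 8.25 and 7.99 in EpiSC9 and 5.43 to 6.15 in the R1-129 lines (adjusted p = 6.22e-07). Tnnc1, cardiac troponin C, averaged 8.18 in EpiSC9 and 6.49 in the R1-129 lines (adjusted p = 0.0225), and Myh3, embryonic myosin heavy chain, read 6.46, 6.32 and 6.30 in EpiSC9 and was detected on 1 of 65 R1-129 arrays. Myh3 thus reached the detection minimum only through the EpiSC9 cultures. None of the 9 tested members of the smooth muscle contractile list passed, and that list's median was -0.11.

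Picalm, a clathrin assembly protein, was among the genes lower in EpiSC9. It read 5.36, 5.58 and 5.06 in the EpiSC9 cultures and 5.01 in EpiSC9_T, against R1-129 lines packed between 8.89 and 9.38 around a median of 9.15 (log2 fold change -3.81 ± 0.18, adjusted p = 7.7e-12). The file holds 1 tested probe for it, so a difference in the RNA and a difference in the probe's target between strains cannot be told apart. Arhgap12, a GTPase activating protein, read 6.14, 6.45 and 6.20 in EpiSC9 and 8.16 to 8.93 in the R1-129 lines (log2 fold change -2.26 ± 0.24, adjusted p = 1.98e-06), while its other tested probe was near background in both groups. Slitrk5, a transmembrane protein of neurons and progenitors, lies outside the naming rule since 64 of 65 R1-129 arrays detected it, and was chosen after its values were seen. It read 5.19, 5.18 and 4.63 in EpiSC9 and 5.63 in LMS2, the lowest R1-129 line, with a median line at 8.97 and the highest at 9.69 (log2 fold change -3.84 ± 0.79, adjusted p = 0.00895). Its call was lost within the shared array set (adjusted p = 0.293) and with passage as a covariate (adjusted p = 0.141).

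Immediate early genes are induced by growth signals and by handling, and many encode transcription factors. Of 11 tested, 3 were lower in the cultures, namely Fos, Egr1 and Egr2 (27.3%, against 0.401% of all genes). Egr2 read 5.72, 5.48 and 5.35 in the EpiSC9 cultures, against R1-129 lines from 7.18 through 8.32 to 9.85, with no overlap (log2 fold change -2.72 ± 0.53, adjusted p = 0.00577). Fos read 10.13, 9.36 and 8.83 in EpiSC9 and 10.45 to 13.08 in the R1-129 lines (log2 fold change -2.31 ± 0.58, adjusted p = 0.0411). Egr1 averaged 11.79 in EpiSC9 and 13.00 in the R1-129 lines (adjusted p = 0.0493). EpiSC9_T did not share this for Egr2 and Fos: Egr2 was at 9.58 and Fos at 11.96 there, both inside the range of the R1-129 lines. Egr1 read 12.53 in EpiSC9_T, also inside that range but below the R1-129 mean, on the side of the cultures. Within the shared array set none of the 11 passed (Egr2 log2 fold change -2.21, adjusted p = 0.178), and the Egr1 call was lost in 26 of 40 alternatives.

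Ccnd1, which encodes cyclin D1, a driver of the G1 phase and a target of Wnt signals, was lower by a small amount at high levels. It read 11.94 to 12.08 in the 3 EpiSC9 cultures and 11.77 in EpiSC9_T, with R1-129 lines between 12.52 and 13.39 (log2 fold change -1.04 ± 0.26, adjusted p = 0.0339). Of its 3 tested probes 2 passed on their own and all 3 were lower. The other 11 of 12 tested Wnt target genes did not pass, and their list's median was -0.27. Cep63, a centrosome protein (log2 fold change -1.33 ± 0.23, adjusted p = 0.00175), and Ric8b, a chaperone of G protein alpha subunits (log2 fold change -1.41 ± 0.31, adjusted p = 0.0173), each passed with both tested probes. Atg3, an enzyme of autophagy, averaged 6.70 in EpiSC9 and 8.24 in the R1-129 lines (adjusted p = 0.00125). Within the shared array set all 4 calls were lost, with adjusted p of 0.084 for Ccnd1, 0.0762 for Cep63, 0.339 for Ric8b and 0.0649 for Atg3.

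The supplied RNA was a separate preparation of the same line. EpiSC9_T lay on the same side of the R1-129 mean as the cultures for 193 of the 230 higher genes and 51 of the 58 lower ones, together 84.7% of the 288, where 68.1% of all tested genes did so. It lay beyond all 18 line means, on the cultures' side, for 149 of the higher and 38 of the lower genes, 64.9% of the 288, where 29.7% of all tested genes did so. All 20 of the highest genes by the naming rule were on the same side, 18 of them beyond all lines. The cultures' own correlation with EpiSC9_T was 0.955 to 0.967, below that among the cultures. Set alone against the R1-129 lines in place of the cultures, EpiSC9_T gave 1955 calls, of which 145 were among the 288.

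Fibroblast genes, which mark carried-over feeder cells, separated the cultures from EpiSC9_T. The mean level of the 17 tested fibroblast genes was 8.33 to 8.55 in the EpiSC9 cultures, inside the R1-129 range of 7.81 to 9.45, and 6.90 in EpiSC9_T. None of the 17 passed (median log2 fold change -0.27), and 13 of 17 were below all R1-129 lines in EpiSC9_T. Col1a1, a collagen chain of fibroblasts, averaged 8.67 in the cultures and 8.96 in the R1-129 lines, and read 6.18 in EpiSC9_T. The part of carried-over cells in the genes that differ between the cultures and EpiSC9_T was not tested. Of the 30 lists, 21 had no member past the limit, with medians from -1.41 to 0.80, and the visceral endoderm list had 1 of 15, Sox7, which the endothelial list also holds.

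**Figure D4:**
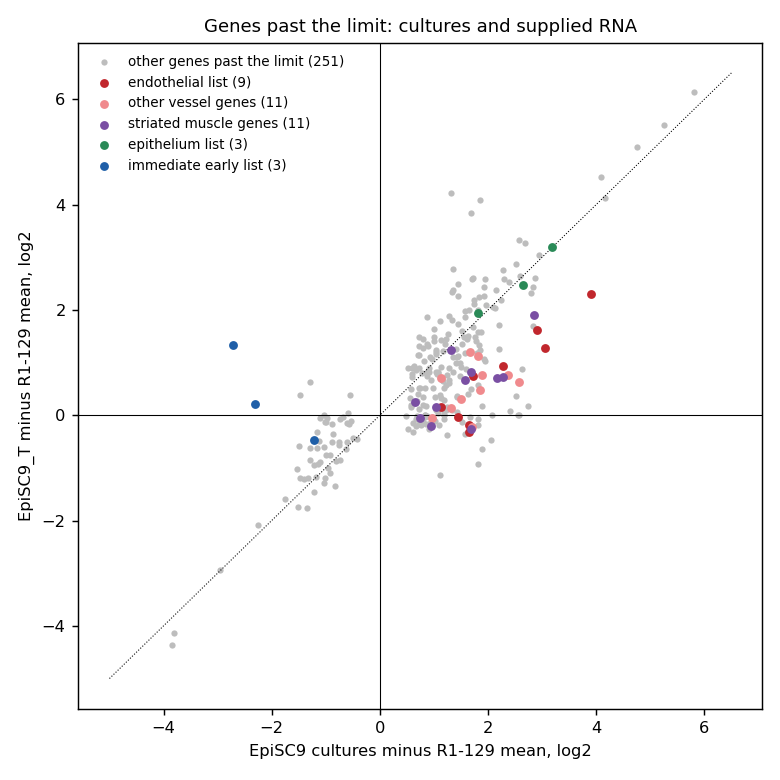
Difference from the R1-129 mean, in log2, of the EpiSC9 cultures (x axis) and of EpiSC9_T (y axis) for the 288 genes that passed, with gene groups in colour and a dotted line of equality. The 3 epithelial genes lie near the line, most endothelial and muscle genes below it, and 2 of the 3 immediate early genes above 0.

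The EGFP probe set EpiSC9 apart from the R1-129 lines, and the sex-linked genes placed it with 7 of them. The probe named EGFP, for the green fluorescent protein that is used as a reporter, read 7.19, 6.98 and 7.57 in the EpiSC9 cultures and 7.60 in EpiSC9_T, against R1-129 lines from 4.46 to 5.10 (log2 fold change 2.52 ± 0.16, adjusted p = 1.14e-09). It was detected on all EpiSC9 arrays and on 1 of 65 R1-129 arrays, and on none of the 43 other arrays of the series. The probe thus reached the detection minimum of the test only through the EpiSC9 cultures. Nothing in the labels names a reporter in this line. Xist, the RNA that silences an X chromosome, read 11.31, 10.93 and 10.43 in EpiSC9 and 10.33 in EpiSC9_T. The Y-linked Eif2s3y was not detected on these 4 arrays (4.35 on average in the cultures). The R1-129 lines split: 11 lines had Eif2s3y at 8.37 to 10.20 and Xist at most at 5.10, and 7 lines lacked Eif2s3y and had Xist at 6.22 to 10.19. EpiSC9 thus lay with the 7 lines and above all of them for Xist, and neither gene passed the test (adjusted p = 0.227 and 0.625).

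The calls of Nckap1l, Nr5a2, Cldn5, Icam2, Cd93, Myl1, Myh3, EGFP, Picalm and Arhgap12 were kept in every alternative that tested them. Icam2 was tested in 35, EGFP in 37 and Myh3 in 38 alternatives, and these genes reached the detection minimum only through the EpiSC9 cultures. None of these 3 genes was tested with EpiSC9_T in place of the cultures. Myh3 read 4.4 in EpiSC9_T, not detected and below the R1-129 mean of 4.66, so the supplied RNA did not share its rise. Icam2 (5.29, not detected) and EGFP (7.6, detected) lay above all 18 lines there. Single cultures set some other calls. For 11 of the 288 genes 1 culture differed by over 4-fold (2 log2 units) from the nearest other, and in 10 of these it was culture 2 that was high. All 11 carry only a clone or locus number. LOC386360, for example, read 6.83, 11.85 and 7.79 in the cultures and 6.25 in EpiSC9_T, with an R1-129 mean of 6.09. Without culture 2, 197 genes passed, and without culture 1, 652. Of the 288 genes, 57 had another tested probe, 70 such probes in all. Of these 64 had the same sign and 22 passed in the same direction when each probe was tested on its own, and none passed in the opposite one.

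**Figure D5:**
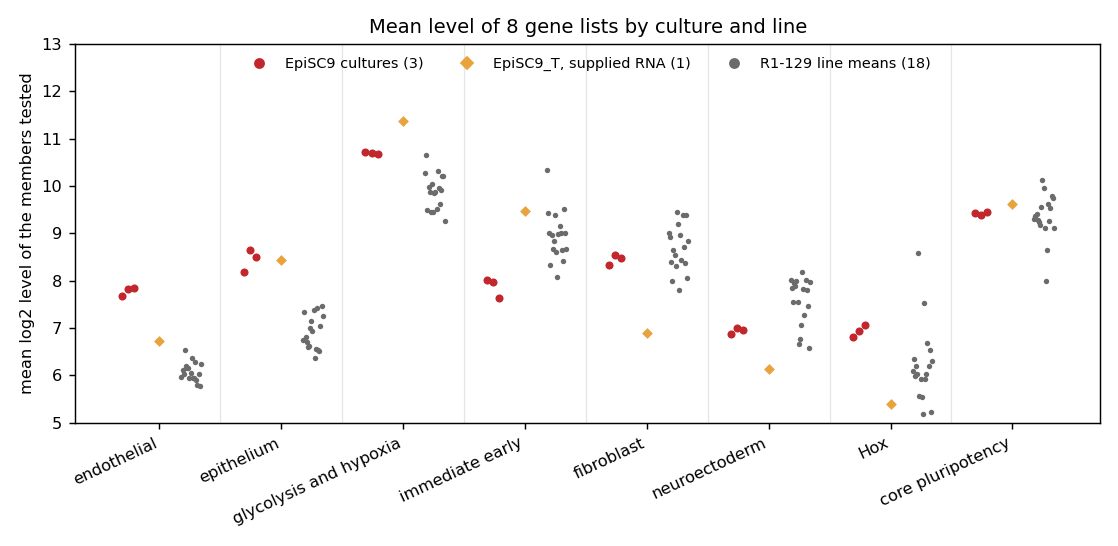
Mean log2 level of the tested members of 8 gene lists (y axis), with the 3 EpiSC9 cultures (red), EpiSC9_T (orange) and the 18 R1-129 line means (grey) for each list. The endothelial and epithelium means lie above all lines in every EpiSC9 array, the fibroblast mean of EpiSC9_T lies below all lines, and the core pluripotency means overlap.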

How the data were processed

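RNA was measured on Illumina bead arrays. Per the labels' protocols, unamplified samples were labelled by TotalPrep from 230 ng RNA. Per the submitters' processing notes the authors used BeadStudio; its version, the array type and the genome build are not given in the sources used here. The deposited raw table holds for each of 45281 probes an intensity on a linear scale, not background-subtracted, and a detection p-value, per the file headers. A second deposited table holds log2 values of 31646 probes by a method not stated; 3 of its columns, cultures of 1 R1-129 line, matched another culture of that line best, and it served as an alternative.

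Intensities of all arrays of the series were processed together by neqc (offset 16, negative controls inferred from the detection p-values) in limma 3.58.1 under R 4.3.3. The probe with the highest mean stood for a gene, and a gene was tested when detected on at least 3 of the 68 compared arrays. Of 30774 gene names, 15991 were current symbols, 5826 were older synonyms that were updated, and 8957 stayed as written. Cultures were averaged to lines and tested with lmFit and eBayes (trend), 2-sided, with Benjamini-Hochberg adjustment and a limit of 0.05. EpiSC9 is 1 line, so the spread is that of the R1-129 lines, and with 1 against 18 an exact permutation test cannot reach 0.05. The labels describe triplicates as cultured separately. ± is a standard error; where no R1-129 array detected a probe, each was set to the higher of its lowest detected value and the gene's value, which gives "at least N-fold".

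On simulated data of 14460 genes, 1 line against 18, the fit recovered 20 of 50 genes changed by 1 log2 unit, 46 of 50 by 2, 47 of 50 by 3 and 49 of 50 by 4, and made 16 false calls. The text names the 20 highest and 20 lowest genes that all arrays of the group with the higher level detected, members of 30 gene lists, and genes with 2 passing probes; others are said to be chosen after seeing values. The members, lists and comparison were chosen with earlier results of these data known. Array sets came from 13482 probes at background, clustered and cut into 7 sets. Culture numbers did not pair the samples: same-numbered cultures of different lines had a median correlation of deviations of 0.01, and 189 of 737 pairs exceeded 0.1. Alternatives were median scaling, no background correction, the deposited values, normalization of EpiSC arrays alone, other filters, every probe on its own, a 2-fold minimum, other units and blocks, passage, array sets, left-out arrays and lines, and EpiSC9_T. The number of arrays limits the precision. Some genes are not reported here.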

Additional observations from a re-analysis of the deposited data

How the results depend on the processing

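Every alternative that kept the EpiSC9 cultures kept the direction of all called genes it tested. The count of genes past the limit, 288, moved by over 1.5 times with no filter on dim probes (1014, 942 of them higher), a stricter filter (149, 104 higher), the starred sublines left out (188, 33 lower), passage as a covariate (116, 91 higher and 25 lower), only the shared array set (89, 67 higher and 22 lower) and EpiSC9_T in place of the cultures (1955, 1035 higher and 920 lower). Median scaling gave 148 higher genes and shifted the median of all genes to -0.11. A 2-fold minimum left 33 lower genes. With cultures as the unit, 97 genes were lower with the line as a random block alone, of 399 in total. With the culture number as replicate block 96 were lower, of 396 in total. Both fits count the cultures of EpiSC9 separately and share a within-line correlation of 0.47 across genes, so their counts add no support. Leaving out 1 culture gave 197 to 652 genes (156 to 433 higher, 41 to 219 lower), and leaving out 1 R1-129 line gave 250 to 325 (203 to 247 higher, 47 to 78 lower). The share of higher genes was 69.8% with the stricter filter and 92.9% with none.

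Members of all lists past the limit, 22, numbered 9 with the stricter filter, 34 with cultures as the unit (34 with the replicate block), 14 with passage, 12 in the shared set and 58 with EpiSC9_T alone, and 16 to 28 without 1 culture or 18 to 25 without 1 line. Endothelial members higher numbered 4 with the stricter filter and in the shared set, 5 with passage and 3 with EpiSC9_T alone, and 7 to 11 when a culture or line was left out (7 to 10 over cultures, 8 to 11 over lines). Epithelium members numbered 5 with no background correction, with no filter and with EpiSC9_T alone, 1 with the stricter filter and with all unamplified lines sharing the spread, 8 with cultures as the unit and with the replicate block, and 3 to 4 when a culture or line was left out. Immediate early members lower numbered 1 with the stricter filter, all unamplified lines, both fits of cultures (replicate block included) and the sublines left out, 0 with the array set as a block, in the shared set, with EpiSC9_T alone and with EpiSC9_T added to the cultures, and 1 to 3 when a culture or line was left out (1 without CAV3, EB1a, LB1, LMS6, PS3, PS4 or PS5, or without culture 2 or 3). The cause was not tested.

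With EpiSC9_T in place of the cultures the sign turned for Sox7 (-0.31), Robo4 (-0.19), Fos (0.21), Egr2 (1.34), Tgfbi (-0.19) and Max (0.63). With median scaling, 159 called genes, of the 194 that it gave, were on the cultures' side in EpiSC9_T, against 244 of 288. Signal near background limits the folds of genes that few R1-129 arrays detected.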

Other observations

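In the glycolysis and hypoxia list no member passed the limit. All 18 tested members were above the R1-129 mean in the EpiSC9 cultures, with a median log2 fold change of 0.80, and 15 of 18 were above all R1-129 lines in EpiSC9_T, with a median of 1.38. The mean level of the list was 10.67 to 10.72 in the cultures and 11.38 in EpiSC9_T, against R1-129 lines from 9.26 in LB3 to 10.66 in CAV2. Slc2a1, the glucose transporter of most growing cells, averaged 13.61 in EpiSC9 and 12.21 in the R1-129 lines (log2 difference 1.41 ± 0.49, adjusted p = 0.187), and Pdk1, a kinase that holds pyruvate back from mitochondria, averaged 9.47 and 7.97 (adjusted p = 0.358).

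None of the 20 tested Hox genes passed. In the cultures 18 were above the R1-129 mean (median 0.48), and in the single array of EpiSC9_T 3 were (median -1.01), a difference that was not tested. Neuroectoderm genes had a median of -0.46 in the cultures and -1.56 in EpiSC9_T, where 8 of 14 were below all R1-129 lines. Histone genes H4c11, H4c3, H4c9 and H2bc14, chosen after their values were seen, passed as higher in EpiSC9, with log2 fold changes of 1.68, 1.67, 1.43 and 1.60. Each read highest in culture 2. In EpiSC9_T H4c3 read 5.34, against an R1-129 mean of 5.38, while H4c11, H4c9 and H2bc14 lay above their R1-129 means. The call of H4c11 was lost in 15 of 40 alternatives, among them passage as a covariate and the shared array set (adjusted p = 0.133 and 0.071).

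Medians by chromosome over 7950 genes detected on all compared arrays showed no large shift in EpiSC9: they lay between -0.11 and 0.16 in the cultures and between -0.08 and 0.06 in EpiSC9_T, where the R1-129 lines reached 0.41 in EB1b.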
